A study of Mus musculus with 6 samples.

Results

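Far distal regions of histone H3 lysine 27 acetylation (H3K27ac) were taken as stretches of the mouse genome marked by this modification far from any gene that encodes a protein. Overlapping peaks of the 6 deposited lists were merged on chromosomes 1 to 19, which gave 112705 regions, and 45032 of them had a peak in at least 2 libraries. Among these recurrent regions, 3981 (8.84%) lay outside the body of every RefSeq protein-coding gene and more than 50 kb from its nearest end. The choice used the peak calls themselves, so the number of libraries with a call is given below as a description.

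The nuclei were isolated from left ventricles of mice of the FVB strain, 8 to 12 weeks old, and sorted with an antibody against PCM-1, a protein on the nuclear envelope of cardiomyocytes. H3K27ac was profiled by CUT&RUN, in which a nuclease tethered to the antibody releases the marked DNA for sequencing. The mice were wild type (WT, 3 libraries) or lacked Nppa and Nppb after CRISPR editing (HOM, 3 libraries), adjacent genes that encode the natriuretic peptides ANP and BNP. The labels' husbandry text also names Cre and reporter lines on the FVB background, and no label says that these 6 libraries carry them or gives the ends of the deletion. Values listed for 6 libraries are given below in the order WT replicates 1, 2 and 3, then HOM replicates 1, 2 and 3, which is called the library order. Whether each library stands for a mouse of its own is not in the labels, so the p-values below weigh differences against a spread between samples that may be only technical. In a population of nuclei, fewer marked nuclei and less mark per nucleus cannot be told apart.

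Enhancers are stretches of DNA that bind transcription factors and raise transcription from promoters that can lie far away along the chromosome. Active enhancers carry H3K27ac on the nucleosomes beside them, as active promoters do. In heart muscle such distal elements are known for their role in the expression of genes of contraction, rhythm, growth and metabolism, and dense groups of them are often found around genes that a cell type depends on. Intervals far from coding genes also hold the promoters of long non-coding RNAs and of microRNA hosts, which carry the same mark.

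The microRNA loci among these regions show what lies in such intervals. MicroRNAs are short RNAs that pair with messenger RNAs through their seed, and 19 microRNA genes lay within 10 kb of a far distal region. RefSeq (GRCm38.p6) gave a mature sequence for 16 of them. The sequences below belong to loci described later, written 5′ to 3′ with the seed (bases 2 to 8) in capitals. For Mir1a-1 only the sequence named mmu-miR-1a-1-5p was available. Any other mature sequence of this gene, and its seed, are not shown, so the printed seed does not stand for the whole locus. The first pair shares a seed and lies at Mir30a and Mir30c-2, and the second pair shares a seed and lies on chromosomes 16 and 9, at Mir99a and Mir100.
mmu-miR-30a-5p: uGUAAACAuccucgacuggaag
mmu-miR-30c-5p: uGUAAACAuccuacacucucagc
mmu-miR-99a-5p: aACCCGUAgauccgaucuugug
mmu-miR-100-5p: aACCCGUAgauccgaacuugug
mmu-let-7c-5p: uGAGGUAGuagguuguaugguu
mmu-miR-125b-5p: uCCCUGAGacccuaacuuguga
mmu-miR-101a-3p: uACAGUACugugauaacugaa
mmu-miR-1a-1-5p: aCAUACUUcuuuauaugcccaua

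Promoters of non-coding genes lay inside 63 of the far distal regions. RefSeq promoter windows of 300 bases, from 250 before to 50 after the gene start, fell wholly inside these regions 70 times, for 65 genes. The 3 printed here were chosen after their values were seen, from regions called in 5 libraries, every library but HOM replicate 2. Each printed window holds a motif described below. Other windows in regions called in the same 5 libraries, those of Gm28644 and Gm52577 among them, hold none of these motifs. A call is for the whole region, and in WT replicate 1 no peak reached the Mir99ahg window. The Mir99ahg promoter is at chr16:77329078-77329377 on the plus strand, between Usp25 and Cxadr. The long non-coding gene it belongs to is named for miR-99a but ends before Mir99a starts in the RefSeq rows used here. Gm33439, a non-coding gene between Ifng and Dyrk2, has its promoter at chr10:118746453-118746752 on the plus strand. The Gm32492 promoter is at chr19:56668817-56669116 on the plus strand, between Nhlrc2 and Adrb1, the gene of the β1 adrenergic receptor. All positions are 1-based in mm10 (GRCm38.p6), each sequence is written 5′ to 3′ along the gene, and capitals mark the motifs described next.
Mir99ahg promoter: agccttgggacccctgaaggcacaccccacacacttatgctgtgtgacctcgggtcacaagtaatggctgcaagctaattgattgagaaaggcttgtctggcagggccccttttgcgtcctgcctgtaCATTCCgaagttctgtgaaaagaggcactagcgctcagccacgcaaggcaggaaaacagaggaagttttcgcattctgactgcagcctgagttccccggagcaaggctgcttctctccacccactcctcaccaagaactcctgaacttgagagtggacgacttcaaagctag
Gm33439 promoter: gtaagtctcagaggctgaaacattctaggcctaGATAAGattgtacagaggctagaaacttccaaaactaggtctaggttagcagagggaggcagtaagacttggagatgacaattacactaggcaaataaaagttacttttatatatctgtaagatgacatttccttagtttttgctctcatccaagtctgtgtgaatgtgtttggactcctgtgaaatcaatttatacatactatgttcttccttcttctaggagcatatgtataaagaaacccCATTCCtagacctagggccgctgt
Gm32492 promoter: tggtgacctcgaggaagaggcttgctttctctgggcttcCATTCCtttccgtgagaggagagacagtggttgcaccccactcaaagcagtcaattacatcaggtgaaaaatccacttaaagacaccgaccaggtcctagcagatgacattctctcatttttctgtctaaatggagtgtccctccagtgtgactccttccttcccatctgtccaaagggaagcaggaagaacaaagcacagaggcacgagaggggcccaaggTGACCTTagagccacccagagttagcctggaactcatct

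The motifs were searched on both strands as the MEF2 consensus, with A or T at each base of its core, and the letters GATAAG for GATA factors, AAGGTCA for oestrogen-related receptors, GGAATG for TEAD and TGANTCA for AP-1. The Gm33439 window held GATAAG 1 time and GGAATG 1 time, and no MEF2 match was found in the 3 windows printed. The windows of Mir99ahg and Gm32492 each held GGAATG 1 time, and that of Gm32492 also held AAGGTCA 1 time. Over the 70 windows inside far distal regions, GATAAG was present in 11.4%, the MEF2 consensus in 5.71%, AAGGTCA in 4.29%, GGAATG in 20% and TGANTCA in 12.9%. Over all 31396 RefSeq promoter windows of the same length the shares were 7.44%, 3.1%, 4.69%, 14.6% and 7.84% in the same order. With 8, 4, 3, 14 and 9 windows behind the first set, these shares are a description of short letter strings and no difference was tested.

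The 6 lists differed widely in length, and this touches every count below. On chromosomes 1 to 19 they held 21057, 71295, 104594, 47627, 1188 and 15052 peaks in library order, and no read counts, so the sequencing depth is unknown. Chromosome Y held 149, 42, 44, 156, 19 and 18 peaks and chromosome X 65, 901, 1840, 242, 26 and 53, in the same order. WT replicate 1 and HOM replicate 1 thus stood apart on chromosome Y, across the genotypes. The part of sex or batch in the calls below was not tested. HOM replicate 2 stood apart with the shortest list, and a missing call there is no measurement of a missing mark. Its peaks were 79 bp wide at the median, against 232 to 292 bp in the other lists. Far distal regions made up 40.2% of the bases its peaks covered, against 6.33% to 10.7% in the others. Of 8 cardiomyocyte genes, Ttn and Myh6 among them, each of the other 5 libraries had a peak in the body or within 1 kb of all 8, and HOM replicate 2 of none. The marker lists of the other heart cells were marked less fully in the same 5 libraries. Peaks marked 0 to 2 of 12 fibroblast genes and 1 to 6 of 12 endothelial genes. They marked 4 to 7 of 10 smooth muscle and pericyte genes and 0 to 4 of 12 immune genes. The smooth muscle list shares Des with the sarcomere list used below, so it is not free of cardiomyocyte genes. The part of these other cells in the results below was not tested. The interval from Nppb to Nppa held 1, 2 and 4 peaks in the WT libraries and 0 in each HOM library, and the absence in HOM replicate 2 checks nothing.

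A far distal region was 670 bp wide at the median, with quartiles of 391 and 1194 bp. The narrowest spanned 164 bp and the widest 38528 bp. The median region merged 3 peaks and lay 124956 bp from the nearest coding gene. The nearest was at 50010 bp and the farthest at 2137536 bp. Of the 3981 regions, 982 lay within 75 kb of a gene, 226 between 500 and 1000 kb, and 62 beyond 1000 kb. Just inside the distance limit, 472 regions at 50 to 60 kb had a median width of 700 bp and a mean of 3.08 libraries. Just outside it, 600 recurrent intergenic regions at 40 to 50 kb had 712 bp and 3.13 libraries. Below the limit on recurrence, 5808 regions at the same distances had a peak in 1 library and a median width of 198 bp, against 426 bp for the 1806 regions in 2 libraries.

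Each library called a different part of the set. In WT replicates 1, 2 and 3 a peak was present in 1203, 3546 and 3858 of the regions, which is 30.2%, 89.1% and 96.9%. HOM replicates 1, 2 and 3 had a peak in 2360, 169 and 930, which is 59.3%, 4.25% and 23.4%. The order of the libraries was the order of their list lengths, and HOM replicate 1 lay between the WT libraries. The WT mean was 2869 ± 1451 regions (SD, n = 3) and the HOM mean 1153 ± 1112 (SD, n = 3) with HOM minus WT at -1716. The regions were chosen by these calls, so no test is given. Near intergenic regions, defined below, were called at nearly the same shares, 31.1%, 89.2%, 96.2%, 57.9%, 3.58% and 24.2% in library order.

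**Figure D1:**
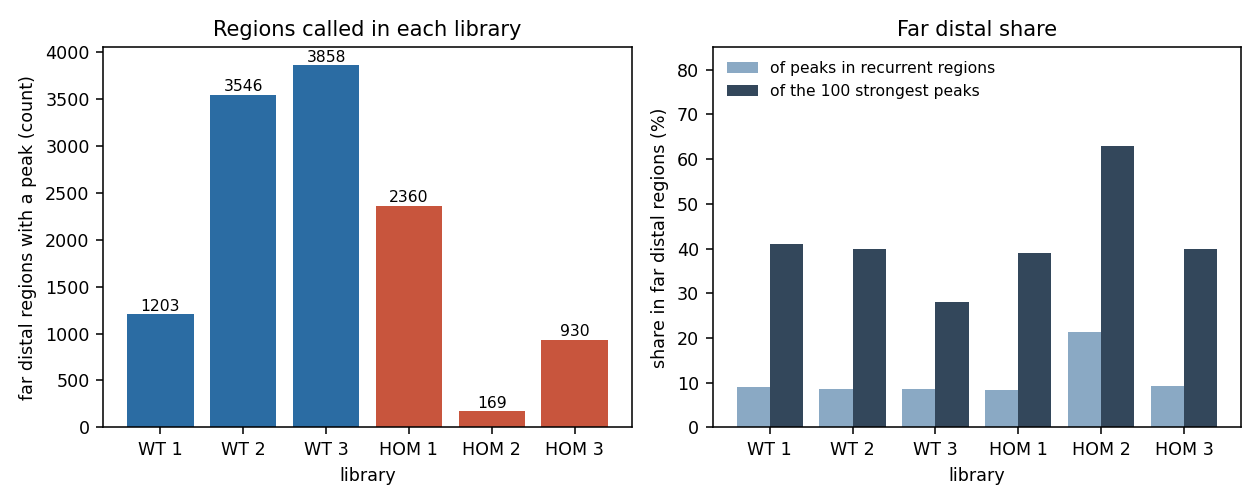
Left, far distal regions with a peak in each library, lowest in HOM replicate 2 (169) and highest in WT replicate 3 (3858), WT in blue and HOM in red. Right, the share in percent of each library's peaks in recurrent regions (light) and of its 100 strongest peaks by the authors' q-value (dark) that lay in far distal regions, with HOM replicate 2 highest on both.

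Far distal regions held more of the strongest peaks of each list than of its peaks at large. As a share of all peaks in recurrent regions they made up 9.01%, 8.54%, 8.66%, 8.45%, 21.4% and 9.28% in library order. Among the 100 peaks with the lowest q-value of each list they made up 41, 40, 28, 39, 63 and 40. Most of these top peaks lay in regions called in all 6 libraries, 41, 34, 22, 39, 63 and 40 in the same order. These loci are described below. The regions were chosen in part by their calls, so no test is given.

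Across the whole class, peak strength was set against 3 other position classes under the same rule on recurrence. The classes were regions in a gene body away from its ends (intragenic, 25266 regions), within 1 kb of a gene end (gene end, 9161) and outside genes but closer than 50 kb (near intergenic, 6624). Strength was the fold enrichment given by the authors' peak caller, ranked as a percentile within each list because folds of separate lists are not comparable. The median percentile of far distal peaks was 55.6, 57.5, 72.9, 61.4, 76.0 and 61.8 in library order. For near intergenic peaks it was 55.6, 57.5, 72.9, 46.6, 56.5 and 61.8, equal to the far distal value in 4 of the 6 libraries, since many peaks share the same low fold. The mean difference was 5.72 percentile points ± 8.98 (SD, n = 6), and it was above 0 in 2 libraries (exact sign-flip permutation p = 0.5, Benjamini-Hochberg adjusted p = 0.5). Against intragenic peaks it was 11 ± 13.0 with 3 libraries higher and none lower (exact p = 0.25, adjusted p = 0.375), and against gene ends 10.3 ± 19.4 with 2 higher and 1 lower (exact p = 0.5, adjusted p = 0.5). Without HOM replicate 2 the 3 differences were 2.96, 7.22 and 3.32, and without the regions called in all 6 libraries, a setting chosen with the results in view, they were 0, 5.26 and 4.89. With every list limited to the length of the shortest they were 13.2, 20.1 and 27.5 (exact sign-flip permutation test, lowest adjusted p = 0.0938).

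Peak width gave small differences in the same family of 6 tests. Far distal peaks were wider by 3.09 percentile points ± 4.40 than near intergenic peaks (SD, n = 6), in 5 of 6 libraries (exact p = 0.0938, adjusted p = 0.281). They were wider by 3.39 ± 3.93 than intragenic peaks in 5 of 6 libraries (exact p = 0.0625, adjusted p = 0.281), and by 4.40 ± 7.79 than peaks at gene ends in 3 of 6 (exact p = 0.25, adjusted p = 0.375). None of the 6 comparisons passed 0.05, and the smallest sign-flip p that 6 libraries allow without ties is 0.031. For fold, tied medians raised that floor to 0.5 against near intergenic peaks and 0.25 against intragenic and gene end peaks. Those 3 fold tests could not have passed 0.05 and decide nothing. A tie raised the floor for width against gene ends as well. With these floors none of the 6 comparisons could have passed 0.05 after adjustment, so the adjusted values decide nothing either. Without HOM replicate 2 the 3 width differences were 1.37, 1.89 and 1.34, and without the regions called in all 6 libraries they were -0.957, -1.05 and -0.894. By region rather than peak, median widths were 670 bp for far distal, 632 bp for near intergenic, 660 bp for intragenic and 655 bp for gene end regions.

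Recurrence ordered the far distal regions by width up to 5 libraries and broke that order at 6. Regions in 2 libraries (1806, 45.4%) had a median width of 426 bp, those in 3 (980) 771 bp, those in 4 (579) 1149 bp and those in 5 (498) 2018 bp. The 118 regions in all 6 libraries made up 2.96% of the far distal set, beside 2.28% of near intergenic and 1.32% of all recurrent regions, with no test. They had a median of 538 bp with quartiles of 330 and 1794 bp, so narrow and wide regions were both among them. A region in more libraries merges more peaks and can be wider for that reason alone, with a median of 2 peaks in regions of 2 libraries and 9 in regions of 5. The most frequent single pattern was a call in WT replicates 2 and 3 only (1353 regions, 34.0%), the libraries with the longest lists. Adding HOM replicate 1 gave the next pattern (784), and all libraries but HOM replicate 2 the third (476).

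**Figure D2:**
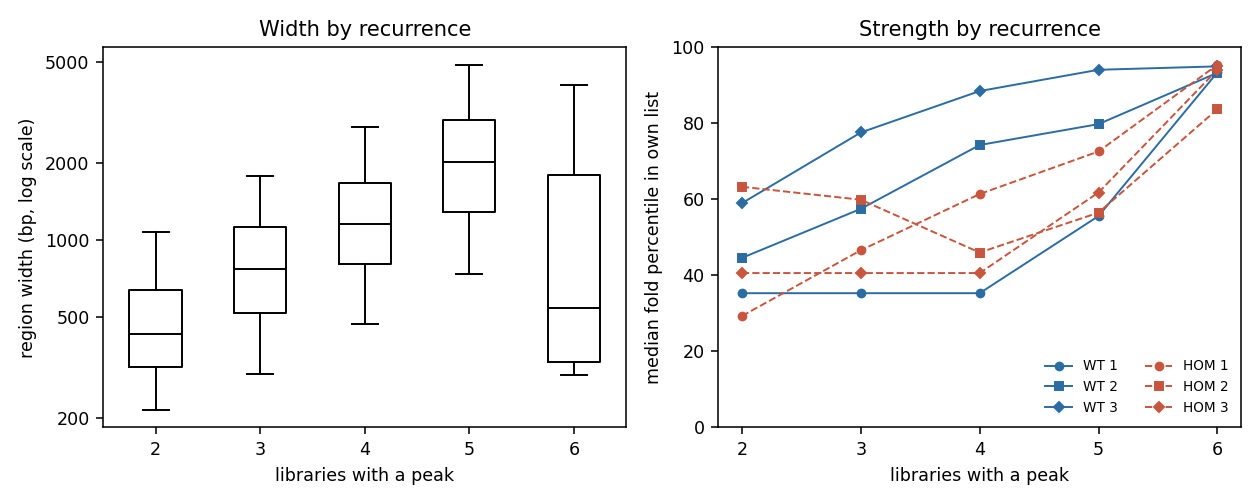
Left, width of far distal regions in bp on a log axis by the number of libraries with a peak (line, median; box, quartiles; whiskers, 5th to 95th percentile), rising from 426 bp at 2 libraries to 2018 bp at 5 and lower at 6 (538 bp). Right, median percentile of the fold of their peaks within each library's own list (WT solid blue, HOM dashed red), which at 6 libraries lies between 83.7 and 95.4.

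The regions in all 6 libraries were also the strongest and lay farther out. Their peaks had median fold percentiles of 93.4, 93.3, 95, 95.4, 83.7 and 94.1 in library order, against 55.6, 79.8, 94.1, 72.6, 56.5 and 61.8 for regions in 5 libraries. Their median distance from a gene was 194 kb, against 110 kb for regions in 5 libraries. Of the 118, 20 (16.9%) lay beyond the outermost coding gene of their chromosome, against 1 of 498 in the group of 5. As many as 56 stood alone, with no other far distal region within 50 kb. These values come from calls and folds that define the groups, and they are given without a test. No list of loci commonly masked for high signal was used here, and the part of such loci was not tested.

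The strongest far distal region in every list was chr2:98666111-98667457, a 1347 bp region between Lrrc4c, which encodes a synaptic adhesion protein, and Iftap, more than 1000 kb from either gene. Its folds were 136, 127, 138, 121, 73.8 and 129 in library order. Regions that started at 98662111, 98663567 and 98664819 on the same chromosome were also among the 7 highest by mean percentile, each called in all libraries. The widest region of the whole set, chr9:2999887-3038414, merged 34 peaks over 38528 bp at the start of the chromosome, below every coding gene, with folds of 117, 110, 119, 107, 70.6 and 108. Mir101c lay 254 bp beyond its end. Regions at chr12:3109749-3110236 (folds 76.2, 81.4, 88.3, 75.5, 71.9 and 74.8) and chr14:19415592-19419773 (81.1, 79.4, 86.0, 73.2, 66.7 and 75.7) were the other 2 of these 7. Regions beyond the outermost gene of chromosomes 11, 14, 16 and 18 and 1 between Tcp10c and Tcte2 on chromosome 17 were also among the 12 highest. At chr17:39842909-39848912 a 6004 bp region with folds between 23.7 and 31.4 overlapped Rn18s-rs5, a pseudogene of the ribosomal RNA gene. In all of these both genotypes had a call in each library.

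The most distant regions were narrow. The farthest, chr1:102628136-102628417, was 282 bp wide and lay 2138 kb from Cntnap5b and 2140 kb from Cdh20, a cadherin gene. It had folds of 6.04 and 8.07 in WT replicates 2 and 3 and of 6.41, 10.3 and 5.46 in the HOM libraries, with no call in WT replicate 1. The next, chr14:90911070-90911393 between the protocadherin genes Pcdh20 and Pcdh9, was 324 bp wide and called in all 6 libraries, with folds of 13.7, 9.27, 12.5, 10.6, 18.0 and 10.5. The other 3 of the 5 farthest lay between Slc39a10 and Tmeff2 (287 bp, 5 libraries), Pcdh7 and G6pd2 (343 bp, 6 libraries) and Celf4 and Pik3c3 (323 bp, 2 libraries). Over distance, 2.24% of regions at 50 to 75 kb and 12.9% of the 62 regions beyond 1000 kb were called in all 6 libraries.

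The regions called in every library but HOM replicate 2, whose list was short, were ranked by mean percentile after their values were seen. Those called in all libraries were not part of this ranking. At the head was chr16:8229883-8233218, between Rbfox1, an RNA splicing factor, and Tmem114, with folds of 7.66, 10.9, 16.1, 9.43 and 8.41 in the 5 libraries other than HOM replicate 2. A region at chr4:95159707-95161354, 107 kb from Jun, had folds of 7.66, 12.5, 15.2, 9.43 and 7.99. A region 587 kb from Gja1, the gene of connexin 43, at chr10:56977450-56980992 had 7.26, 12.9, 22.4, 11.3 and 7.15. In all 3 the fold lay at or above a percentile of 97.2 in each of the 5 lists.

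The widest regions mostly lacked a call in HOM replicate 2 alone. After the chromosome 9 region the widest was chr19:36255884-36267132, 11249 bp between Ankrd1, which encodes a stress-responsive protein of the sarcomere, and Pcgf5, a Polycomb gene. It merged 30 peaks with folds of 6.86, 10.9, 17.9, 7.17 and 5.88 in the libraries other than HOM replicate 2, where it was not called. A 10940 bp region between Hspa9, which encodes a mitochondrial chaperone, and Gm46617 was called in all 6 libraries and had a neighbour of 8590 bp in 5. Regions of 10696 bp between Pabpc6 and Qk, an RNA-binding protein gene, and of 8400 bp between Cebpb and Ptpn1 were called in the 5 longer lists. Further ones were 7665 bp between Pik3r1, the regulatory subunit of PI3 kinase, and Cd180, 7656 bp between Ednra, the endothelin A receptor gene, and Ttc29, and 6150 bp between Myocd, a coactivator of muscle genes, and Map2k4. The other members of the 12 widest lay between Gm30733 and Prex1 (6192 bp), Angpt1 and Rspo2 (6110 bp) and Esp15 and Esp38 (6004 bp), the last being the region at Rn18s-rs5.

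Far distal regions came in groups. Chained over gaps of up to 50 kb, they formed 1295 units, and 2851 regions (71.6%) belonged to 441 clusters of at least 3. The median gap between neighbours was 5949 bp, 48.5% of gaps were at most 5 kb and 18.8% exceeded 500 kb. Single regions numbered 578 and were 548 bp wide at the median, against 750 bp in the 59 clusters of 11 or more. Of the single regions 9.69% were called in all 6 libraries, against 2.00% in those largest clusters.

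The groups filled few of the gene-free intervals. Of the 2495 intervals between neighbouring coding genes longer than 100 kb, 805 (32.3%) held a far distal region, and 110 of them held 50% of the regions. The share of intervals with a region rose with the length of the interval that lay beyond 50 kb of both genes, from 17.5% where this stretch was under 100 kb to 75.7% where it exceeded 1600 kb. The density fell at the same time from 13.8 to 1.90 regions per Mb. The other 41 regions lay beyond the outermost gene of a chromosome.

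The fullest cluster, at chr8:19991009-20157318, held 90 regions between 9530057J20Rik and Gm15319, in the beta-defensin neighbourhood of chromosome 8. In library order 64, 73, 61, 66, 8 and 49 of them were called. A further cluster of 26 in the same interval gave 18, 23, 21, 21, 9 and 15. Of the 90 regions 24 overlapped the pseudogene Gm20778 and 9 overlapped Gm21811, another pseudogene, and 16 of the 26 overlapped 6820431F20Rik. WT replicate 3, which had the longest list and the most calls at the other 10 of the 12 fullest clusters or tied for the most, had fewer calls here than WT replicate 2. This interval held 116 far distal regions, and the nearby intervals Gm15319 to Gm40469 and Gm21119 to Defb33 held 23 and 21. Together these 160 included 13 of the 118 called in all libraries.

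The second cluster, at chr6:31073383-31324022, held 45 regions over 251 kb between Klf14, a Krüppel-like transcription factor gene, and Mkln1, which encodes muskelin. All 45 were called in WT replicate 3, and 15, 32, 30, 0 and 9 in WT replicates 1 and 2 and HOM replicates 1, 2 and 3. The peaks covered 8.64, 26.2, 55.1, 21, 0 and 4.73 kb in library order. They lay along 2 long non-coding genes, with 23 regions in Lncpint and 14 in 2210408F21Rik. HOM replicate 1 thus lay close to WT replicate 2, and HOM replicate 3 below WT replicate 1.

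**Figure D3:**
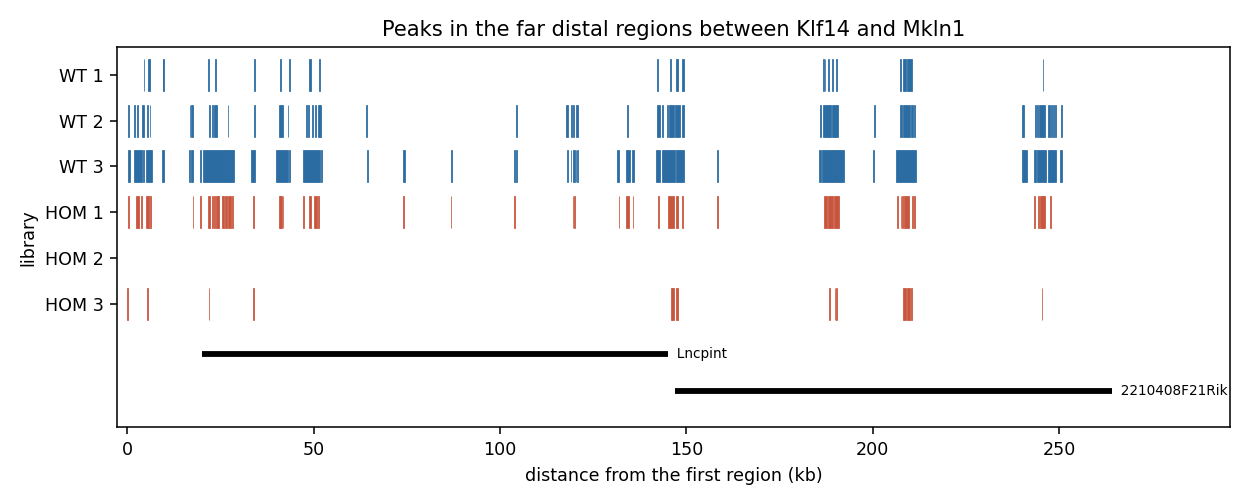
Peaks in the 45 far distal regions between Klf14 and Mkln1 along 251 kb, by distance in kb from the first region (WT blue, HOM red; each block is 1 peak). Black bars show the long non-coding genes Lncpint and 2210408F21Rik; WT replicate 3 covers 55.1 kb and HOM replicate 3 covers 4.73 kb, and HOM replicate 2 has no peak.

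Each of the other 9 clusters among the 12 fullest is named by its flanking genes. Between Usp25, a deubiquitinase gene, and Cxadr, a receptor of the intercalated disc, 28 regions gave 5, 27, 27, 10, 0 and 4 calls. The 25 regions between Ccdc71l and Nampt, an enzyme of NAD synthesis, gave 9, 20, 24, 21, 0 and 8. Between Cebpb, a transcription factor gene of the C/EBP family, and Ptpn1, which encodes a tyrosine phosphatase that acts on the insulin receptor, 25 regions gave 10, 16, 25, 18, 1 and 9. These 3 were called most often in the longest list or tied for it. The intervals between Dhrs2 and Dhrs4, reductase genes, and between Serp2 and Lacc1 held 25 regions each. Those between Bod1 and Cpeb4, a regulator of translation, and between Ly86 and Rreb1, a zinc finger factor, held 24 each. The remaining ones were Magi3 to Lrig2 (23) and Adra1b, an α1 adrenergic receptor gene, to Il12b (20). HOM replicate 1 gave more calls than WT replicate 1 at each of these 9 clusters, and HOM replicate 3 gave 4 to 9.

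Some cluster counts rested on 1 library. Without WT replicate 2 the count fell from 28 to 11 between Usp25 and Cxadr, from 25 to 16 between Serp2 and Lacc1 and from 23 to 15 between Magi3 and Lrig2. Without WT replicate 3 these 3 counts were 13, 14 and 14, and those of Klf14 to Mkln1 and Adra1b to Il12b fell from 45 to 25 and from 20 to 13. No other library moved a count of the 12 clusters by over 1.5 times. With peaks joined over gaps of up to 500 bp, the chromosome 8 clusters held 31 and 2 regions in place of 90 and 26, Serp2 to Lacc1 held 19 and the other 9 held 10 to 22.

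**Figure D4:**
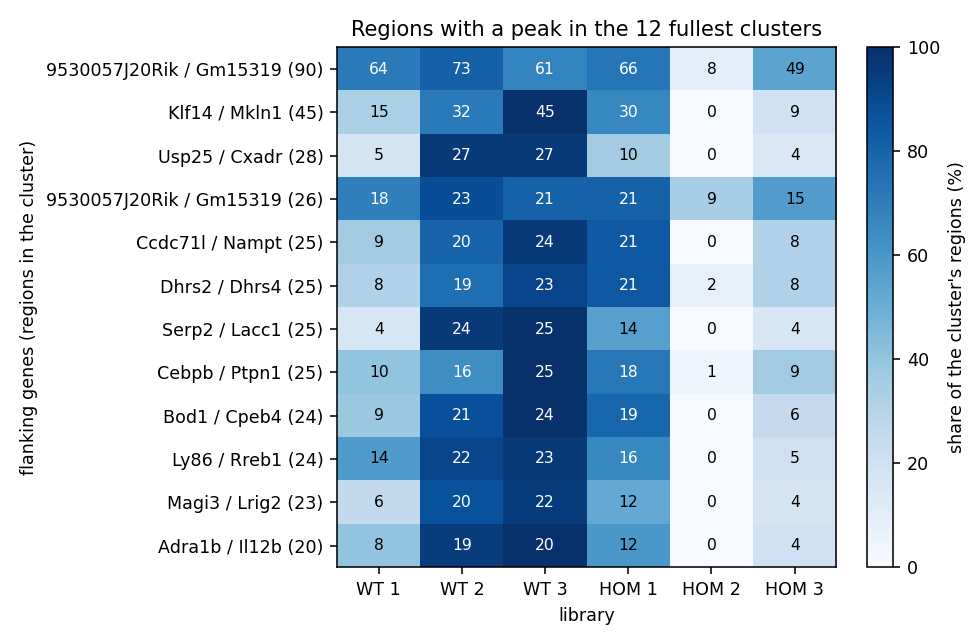
Number of regions with a peak (printed) and their share of the cluster in percent (shade) for the 12 fullest clusters of far distal regions and the 6 libraries; the number in brackets is the regions in the cluster. WT replicate 3 has the most or ties for it except in the 2 clusters between 9530057J20Rik and Gm15319, and HOM replicate 2 has 0 to 9.

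By whole intervals rather than clusters, some long deserts were added to the list. Agtr1b, an angiotensin receptor gene, and Tbl1xr1, a corepressor gene, enclosed 48 regions in 1709 kb, with 16, 45, 48, 32, 2 and 14 calls. Slc4a3, an anion exchanger gene, and Epha4, an ephrin receptor gene, enclosed 42 in 1808 kb. Myc and Gsdmc enclosed 38 in 1786 kb, 9 of them in the long non-coding gene Pvt1, with 9, 35, 38, 24, 0 and 7 calls. Egln3, an oxygen-sensing prolyl hydroxylase gene, and Sptssa enclosed 33 in 441 kb. Gja1 and Hsf2, a heat shock factor gene, enclosed 32 in 1093 kb, with 14, 31, 32, 24, 0 and 12 calls. Zeb2 and Acvr2a enclosed 32 and Nmbr and Cited2 enclosed 31.

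The interval between Adam6a and Zfp386 held 33 regions. All lay within Igh, the immunoglobulin heavy chain locus, and 20, 21, 17, 17, 0 and 13 were called in library order. WT replicate 3, which called the most or tied for it in each of the 7 intervals just listed, called fewer regions here than WT replicates 1 and 2. B cells rearrange and express this locus. Of the 12 immune marker genes, 0 to 4 carried a peak in these libraries, and their part in the calls at Igh was not tested.

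The flanking genes were described with 12 lists, by asking whether a listed gene was 1 of the 2 nearest coding neighbours of a far distal region. Of all 20665 coding genes on chromosomes 1 to 19, 1501 (7.26%) flanked at least 1 region. A gene must border a long empty interval to be counted, so the share among listed genes that border an interval over 100 kb is given too, beside 36.3% (1490 of 4103) for all coding genes. The listed cardiac genes (transcription factors, ion channels and sarcomere) flanked 3.01% of far distal regions and 3.14% of near intergenic regions, a difference that was not tested. No list was tested for enrichment.

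Among cardiac transcription factors 10 of 20 flanked a region, and 10 of the 16 that border a long interval (62.5%). Hand2, a factor of ventricular development, flanked 23 regions 64.1 to 437 kb away, with 11, 18, 23, 17, 0 and 8 calls. Gata6 flanked 15 with 4, 13, 15, 8, 1 and 3 calls, and Mef2c flanked 9, the nearest 561 kb away and none called in WT replicate 1. Mef2a and Meis1 flanked 4 each, Tbx20 3, and Irx4, Tbx3 and Zfpm2 1 each.

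Among genes of ion channels and calcium handling 7 of 20 flanked a region, 7 of the 10 that border a long interval (70.0%). Slc8a1, the sodium-calcium exchanger, flanked 14 regions with 3, 14, 13, 6, 0 and 3 calls. Kcnd2, a channel of the transient outward current, flanked 12 with 3, 12, 12, 6, 0 and 3 calls. Kcnj2 flanked 2, and Kcna5, Kcnd3, Kcnh2 and Ryr2 flanked 1 each. The regions of Kcnd3 and Kcnh2 were each called in every library but HOM replicate 2.

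Of 20 genes of the sarcomere and cytoskeleton, only 3 border a long interval, and all 3 flanked a region. Ankrd1 flanked 15 with 5, 13, 15, 9, 0 and 3 calls, Tpm1, the α-tropomyosin gene, 5, and Myom2, the M-band protein gene, 3. The rest of the list, Myh6 and Ttn among them, border no such interval and could not enter the count.

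Among growth factors and signalling genes 12 of 19 flanked a region, 12 of 16 that border a long interval (75%). Vegfa flanked 20 regions 90.4 to 218 kb away with 3, 18, 20, 14, 0 and 5 calls. Ednra flanked 16 with 5, 13, 16, 12, 0 and 5, Fgf9 12 and Ccn2 5. The single region of Adrb1, which holds the Gm32492 promoter printed above, was called in every library but HOM replicate 2. Npr3, which encodes the clearance receptor of natriuretic peptides, flanked 1 region 265 kb away, called in WT replicates 2 and 3 and in HOM replicate 1.

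Metabolic genes flanked regions in 7 of 20 cases, 7 of 8 that border a long interval (87.5%). Irs1, an adaptor of the insulin receptor, flanked 17 with 4, 14, 17, 11, 0 and 2 calls. Ppara, a nuclear receptor of fatty acid oxidation, flanked 14, all between it and Wnt7b, with 6, 14, 14, 9, 2 and 5 calls. Lpl, the lipoprotein lipase gene, flanked 10 with 6, 7, 10, 6, 0 and 0 calls. Irs2 and Ppargc1a flanked 7 each, with 0 calls in HOM replicates 2 and 3.

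Inducible transcription factors held the most regions of any list, 128, over 9 of 20 genes and 9 of 12 that border a long interval (75%). Myc flanked 40, Cebpb 25, Klf6 19 and Jun 14, and the 40 of Myc gave 9, 37, 40, 24, 0 and 7 calls. Bcl6 flanked 10, Klf4 9 and Nr4a3 7. Genes of cell adhesion and guidance followed with 123 regions over 13 of 20 genes, 13 of 16 that border a long interval (81.2%). Epha4 flanked 43 of them and Gja1 32. The 32 of Gja1 were 77.9 to 793 kb away, and 10 of them were called in 5 or 6 libraries.

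The lists of other organs and other heart cells held 4 to 9 regions each. Genes of other organs had 4 of 19 members and 9 regions (Zic1 4, Pax1 2, Pou3f2 2 and Sox2 1), and 4 of 10 that border a long interval (40%). Fibroblast markers had 2 of 12 members and 4 regions, and endothelial markers 2 of 12 and 5. Immune markers had 1 of 12 and 6 (Ptprc), and smooth muscle markers 1 of 10 and 7. Those 7 all belong to Myocd, a coactivator of muscle genes, and no region was assigned to a cell type. Of the fibroblast and endothelial markers that border a long interval, 22.2% (2 of 9) and 33.3% (2 of 6) flanked a region, and of the smooth muscle and immune markers 50% each (1 of 2). These shares rest on 2 to 10 genes, lie on both sides of the 36.3% for all coding genes, and were not tested.

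Much of the far distal set overlapped non-coding genes. Of the 3981 regions 1101 (27.7%) overlapped a RefSeq gene of another type and 964 (24.2%) a long non-coding RNA gene. Near intergenic regions gave 26.6% and 22.7%. An end of a long non-coding RNA gene lay within 1 kb of 8.79% of far distal and 11.7% of near intergenic regions. Lncpint held 23 regions, Gm36139 19, Gm32622 18, Mir99ahg 16, Gm13481 15 and 2210408F21Rik 14. Where RefSeq genes of every type counted as genes, 814 regions remained farther than 50 kb from any gene.

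The muscle microRNA locus Mir1a-1 and Mir133a-2 lay in a run of 8 regions from chr2:180387036-180398468, inside the host gene Mir1a-1hg and between Gata5 and Slco4a1. The microRNAs of this locus are known for high expression in heart and skeletal muscle. That statement is not made for mmu-miR-1a-1-5p, the only sequence of the locus printed above. The 8 regions were called 2, 8, 8, 5, 0 and 2 times in library order, and their peaks covered 0.577, 5.45, 8.26, 2.72, 0 and 0.850 kb. Each of the 2 microRNA genes overlapped a region of 3 libraries, WT replicates 2 and 3 and HOM replicate 1. In these 3 libraries the fold percentiles were 84.1, 86.5 and 72.6 for the region at Mir1a-1, and 79.8, 81.2 and 61.4 at Mir133a-2. Peaks reached Mir1a-1 itself in WT replicate 3 and HOM replicate 1, and Mir133a-2 in WT replicates 2 and 3. Over all 8 regions the strongest peaks reached the 92.4 and 93.0 percentile in WT replicates 2 and 3 and 72.6 in HOM replicate 1. The mark was thus called here in both genotypes.

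The miR-30 family, whose shared seed is printed above, was marked at both of its far distal loci. At Mir30a and Mir30c-2, between Ppp1r14bl and Ogfrl1, 12 regions over 29.6 kb gave 2, 12, 12, 6, 0 and 1 calls. Mir30a lay inside a 3082 bp region called in every library but HOM replicate 2, though only the peak of WT replicate 2 reached the gene itself. Mir30c-2 lay 6578 bp from the nearest region. At Mir30b and Mir30d, between Zfat and Khdrbs3, 18 regions over 73.3 kb gave 6, 17, 18, 12, 0 and 3 calls. Mir30d lay inside a 2172 bp region, and 2525 bp away a 3730 bp region had fold percentiles of 82.5, 97.5, 95.8, 96.9 and 97.2 in the 5 longer lists.

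**Figure D5:**
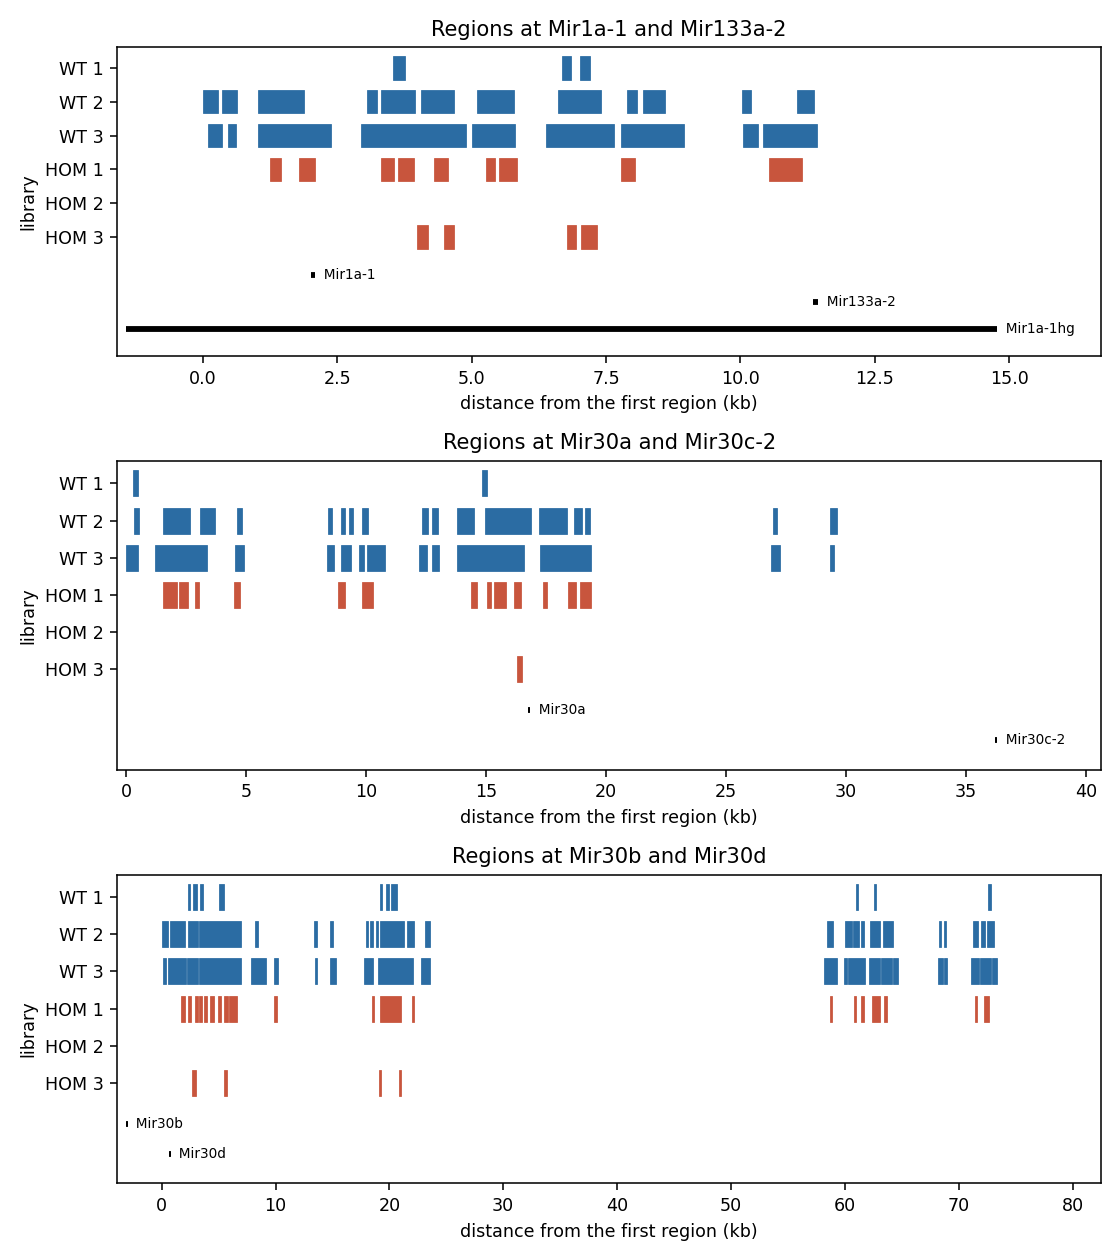
Peaks in far distal regions at 3 microRNA loci by distance in kb from the first region (WT blue, HOM red; each block is 1 peak; black bars, RefSeq microRNA and host genes). At Mir1a-1 and Mir133a-2 the 8 regions were called 2, 8 and 8 times in WT replicates 1, 2 and 3 and 5, 0 and 2 times in HOM replicates 1, 2 and 3.

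The miR-99 and miR-100 pair shares a seed and lay on different chromosomes. From the start of Mir99ahg to Mir99a, which with Mirlet7c-1 lies beyond the end of Mir99ahg, 24 regions over 270 kb gave 4, 24, 24, 9, 0 and 3 calls. The region at the Mir99ahg promoter was 3247 bp wide with fold percentiles of 89.2, 97.5, 98.6, 95.4 and 61.8 in the 5 longer lists. Mir99a itself overlapped a region of 585 bp that was called in WT replicates 2 and 3. Around Mir100hg, which contains Mir100, Mirlet7a-2 and Mir125b-1, 11 regions gave 0, 11, 11, 4, 0 and 1 calls. The 3 regions within 10 kb of these genes were called in WT replicates 2 and 3, the libraries with the longest lists, and in no other. Mir101a lay 6515 bp from a 2546 bp region between Jak1, a cytokine receptor kinase gene, and Ak4 that was called in every library but HOM replicate 2. Of the 155 microRNA genes over 50 kb from coding genes, 19 (12.3%) lay within 10 kb of a far distal region.

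Between the genotypes, 90 far distal regions (2.26%) had a peak in all 3 WT libraries and in no HOM library, beside 2.61% of all recurrent regions. The reverse, all 3 HOM libraries and no WT library, had 0 far distal regions, beside 0.00222% of all recurrent regions. The near equality with the background holds for a rule that used these calls, and no test is given. Of the 90, the one with the highest mean percentile was chr6:94414039-94414611, between Magi1, a scaffold gene of cell junctions, and Slc25a26, with folds of 5.65, 12.1 and 8.51 in WT. Others were chr9:97187941-97188765 between Slc25a36 and Trim42 (5.65, 6.85 and 12.5), chr13:5723525-5724708, 137 kb from Klf6 (5.24, 6.04 and 11.6), and chr13:37621333-37623118 between Ly86 and Rreb1 (5.65, 5.24 and 8.51). The remaining 6 of the 10 highest lay between Rps24 and Zmiz1, Sall1 and Tox3, Khdrbs2 and Prim2, Urb2 and Galnt2, Grxcr1 and Kctd8, and Gm5148 and Ankrd50. The count moved with the library left out. Without WT replicate 1 it was 1446, without HOM replicate 1 439, without WT replicate 2 156 and without WT replicate 3 151. With a library left out, the rule asked only about the libraries that remained and was looser. The matching shares over all recurrent regions were not computed. With every library in use, 35.5% of far distal regions were called in 2 WT and 0 HOM libraries, beside 37.4% of all recurrent regions.

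Regions with more HOM than WT libraries were few. There were 2 with 3 HOM libraries and 1 WT library (0.0502%), 10 with 3 and 2 (0.251%), 21 with 2 and 1 (0.528%) and 5 with 2 and 0 (0.126%). Over all recurrent regions the shares were 0.0178%, 0.131%, 0.318% and 0.0577% in the same order, and the differences rest on calls the choice of regions used and were not tested. The first 2 were chr4:99381347-99381631, between Atg4c and Foxd3, with folds of 6.72 in WT replicate 3 and of 6.79, 9.63 and 7.57 in HOM, and chr13:115742156-115742431, between Itga1 and Isl1, a cardiac progenitor factor gene. Both were under 300 bp wide. Of the 5 regions with 0 and 2, 2 lay in the chromosome 8 interval between 9530057J20Rik and Gm15319. Without HOM replicate 2, 4 regions had a peak in both HOM libraries and in no WT library, and the matching share over all recurrent regions was not computed.

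WT libraries had 8.74% ± 0.246 (SD, n = 3) of their peaks in far distal regions and HOM libraries 13.1% ± 7.26 (SD, n = 3), so HOM exceeded WT by 4.32 percentage points (two-sided exact permutation p = 0.4). HOM replicate 2 had 21.4%, and HOM replicates 1 and 3 had 8.45% and 9.28%. Without HOM replicate 2 the difference was 0.137, and with the other 5 lists also held to the length of the shortest among them it was -0.533. For the median fold percentile of far distal peaks the WT mean was 62.0 ± 9.51 and the HOM mean 66.4 ± 8.31, higher by 4.42 (exact permutation p = 0.5), and -0.375 without HOM replicate 2. Neither difference exceeded the spread between libraries, and with a smallest p of 0.1 neither test could have passed 0.05. On chromosome 4, where the deletion lies, the nearest far distal regions were a pair between Gm572 and Casz1, a zinc finger factor gene of the heart, at chr4:148746354-148747790. The first was called in the 3 WT libraries and HOM replicate 1, and the second in WT replicates 2 and 3 and HOM replicate 1.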

How the data were processed

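H3K27ac CUT&RUN was analysed from 6 peak lists, 1 per library, with groups and replicate numbers from the titles. Alignment and peak calling used BWA and MACS2 on mm10, per the submitters' processing notes, and their versions are not given in the sources used here. In the deposited lists a peak carries a score, a ratio (fold enrichment), and p and q values as −log10, which the authors' peak caller set for each library separately. Values were ranked within a list only, since the 6 lists are unequal in length, hold no read counts and leave the depth unknown.

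Overlapping peaks were merged and placed against 20665 coding genes of RefSeq GRCm38.p6, and 206 of 206 listed symbols matched. Clusters chained regions over gaps of up to 50 kb. Members and gene lists were chosen with earlier results of these data known. Named were the flanking genes of the 12 fullest clusters and intervals, of up to 12 regions in most libraries by mean percentile, of the 12 widest and 5 farthest, of up to 10 regions per direction called in 1 genotype only, and listed genes, most regions first. Other genes named were chosen after their values were seen, among them hosts of microRNAs and ranked regions called in every library but HOM replicate 2. Tests were two-sided exact sign-flip permutations over 6 libraries and exact permutations over the 20 assignments of 3 against 3. Alternatives changed the distance, the recurrence, the peak threshold, the list length, the joining of peaks, the gene set and the libraries included. Merging, distances and exact tests were checked on simulated lists in 50 trials, with 0 mismatches. Software was scipy 1.17.1, pandas 2.3.3 and numpy 2.4.6 under Python 3.11.15, and matplotlib 3.10.9 for plots. The values of 1 gene of the transcription factor list are not reported here.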

Additional observations from a re-analysis of the deposited data

Results flagged for a closer look

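Peaks also lay on unplaced or unlocalised scaffolds, which no comparison above used. As a share of all peaks they made up 0.319%, 0.170% and 0.118% in the WT libraries, by replicate number, against 0.158%, 15.5% and 0.395% in the HOM libraries. A single unplaced scaffold held 188 of the 1462 peaks of HOM replicate 2, 12.9% of its list, and 16 to 28 peaks in each of the other libraries.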

How the results depend on the processing

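None of the 6 comparisons of position classes passed 0.05 after adjustment under any alternative run, and neither genotype difference did. With a library left out, and for the genotype differences under any setting, no such pass was possible. Differences in width and in fold percentile reached the smallest possible unadjusted p, 0.031, under some settings, with an adjusted p of at least 0.0938. For fold these were the shortest length (20.1 against intragenic and 27.5 against gene end peaks) and the mean percentile per library (6.92 against intragenic peaks). The far distal count was 2175 in at least 3 libraries, 2384 in the stronger 50% of each list, 1788 at a −log10 q of at least 5, 2409 beyond 100 kb, 814 with RefSeq genes of any type, 203 with lists limited to the shortest (1188 peaks) and 1380 without HOM replicate 2 at equal length. The share in clusters of at least 3 was 59.4%, 59.7%, 51.5%, 69.3%, 52.6%, 12.3% and 47.5% under the same settings, 51.7% with peaks joined over 500 bp, 73.9% beyond 25 kb, 64% and 76.8% with cluster gaps of 25 and 100 kb, and 65.2% to 71.7% with 1 library left out. Regions in 3 WT and 0 HOM libraries numbered 52 (stronger 50%), 33 (−log10 q), 56 (100 kb), 24 (any gene), 6 (shortest) and 57 (without HOM replicate 2 at equal length), and 90 to 1446 with 1 library left out. Where a library was left out, this and the reverse pattern asked only about the libraries that remained, a looser rule. For both patterns the matching shares over all recurrent regions were not computed under these settings, so the counts are not compared with a background. The reverse pattern numbered 1, 2, 2 and 16 in the stronger 50%, at the −log10 q limit, at the shortest length and without HOM replicate 2 at equal length, and 0 to 4 with 1 library left out. Flanking by listed cardiac genes was 0.983% with genes of any type and 2.46% at the shortest length.

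Some signs turned. The fold percentile difference between HOM and WT was -2.85 in at least 3 libraries, -3.52 in the stronger 50%, -14.1 without regions in all 6 libraries and -2.95 to 6.71 with 1 library left out. The difference in far distal share was -0.533 without HOM replicate 2 at equal length. The width difference was -7.58 against intragenic and -8.53 against gene end peaks at the shortest length, -2.51 against intragenic peaks without HOM replicate 2 at equal length, -0.554 against gene ends with genes of any type, and -0.957, -1.05 and -0.894 against near intergenic, intragenic and gene end peaks without regions in all 6 libraries. The cause was not tested, beyond fewer peaks or libraries in those settings. The last setting, and one without the 160 regions of the 3 chromosome 8 intervals (3821 left), were chosen after seeing the data.

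Same-numbered libraries gave correlations of 0.188, 0.277 and -0.234 over 45032 regions, by replicate number. Pairs of a WT and a HOM library with unlike numbers gave -0.391 to 0.243. The signs were mixed for both kinds of pair, and the numbers were not used as pairs in the main tests. A batch shared by replicates 1 or by replicates 2 was not tested. With the replicate block the differences in share and fold percentile stayed at 4.32 and 4.42 (exact p = 0.5 and 0.75, smallest possible 0.25).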

Other observations

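Far distal regions were spread unevenly over the chromosomes. They made up 14.5% of the recurrent regions of chromosome 12 and 13.5% of those of chromosome 13, against 3.19%, 3.27% and 3.81% on chromosomes 5, 7 and 19. Of the 118 regions in all 6 libraries, chromosome 8 held 17, chromosome 16 held 13 and chromosomes 7 and 15 held 1 each.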
